A study of Mus musculus with 2 samples.

Results

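Retinoic acid signalling was described through 10 genes in 4 roles, chosen by symbol from the 32285 genes of the count table. Synthesis was covered by Aldh1a1, Aldh1a2, Aldh1a3 and Rdh10, clearance by Cyp26a1 and Cyp26b1, nuclear receptors by Rara and Rarb, and cytoplasmic binding proteins by Crabp1 and Crabp2. Each symbol had a row in the table. A further 58 genes of retinol handling and retinoic acid response were followed beside them.

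Single cells were profiled from the upper body of E13.5 mouse embryos, dissected above the liver, after sorting for eYFP. The control library came from Isl1-Cre;R26R-eYFP embryos. The mutant library came from Isl1-Cre;R26R-eYFP;Pik3caH1047R embryos, in which Cre also removes a stop cassette in front of an activated form of the PI3K catalytic subunit. Both genotypes carried Cre under control of the Isl1 promoter and the eYFP reporter, so both libraries hold cells with a history of Isl1 expression and their descendants. Each library was 1 pool of 3 embryos. With 1 library per genotype there is no replicate, no p-value was computed, and the intervals given cover counting error and not the spread between embryos.

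Retinoic acid is made from vitamin A by successive oxidation. Retinol dehydrogenases such as Rdh10 give retinal, and the Aldh1a enzymes turn retinal into retinoic acid, which acts at short range. Cyp26 enzymes degrade it, Crabp proteins bind it in the cytoplasm, and RAR nuclear receptors carry its signal to target genes. Rarb, Cyp26a1 and Crabp2 are themselves well-known targets of the pathway, and in the embryo the signal patterns the hindbrain, pharyngeal region, heart, lung and limbs.

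Filtering on detected genes (above 2000 and below 9000) and on the mitochondrial share of UMIs (below 10%) left 2783 of 4505 control cells and 3489 of 5357 mutant cells. Median depth was 20412 UMIs per control cell and 16839 per mutant cell, and 12 barcodes among the kept cells occurred in both libraries. Judged by UMIs of Xist and of 4 Y-linked genes, the control library was 95.5% female-like, whereas the mutant library was 33.6% female-like and 53.3% male-like. Embryo sex and genotype therefore could not be told apart in the full comparison, and values within female-like cells were computed as well. Clustering without the members and the 58 pathway genes gave 15 clusters, and 8 classes named by markers with at least 50 cells in each library were compared. These were branchial muscle-like cells (886 control and 846 mutant cells), mesenchyme-like cells (525 and 507), lung and foregut mesenchyme-like cells (456 and 113), epithelium-like cells (212 and 301), neuron-like cells (193 and 465), endothelial (EC)-like cells (123 and 609), mesothelium-like cells (70 and 69) and cardiomyocyte-like cells (54 and 183). Some marker sums of a class differed between the libraries. In mesenchyme-like cells 12 mesenchyme markers summed to 12102 UMIs per 1000000 UMIs of the class (CPM) in the control. Their sum was 3672 CPM in the mutant library. In lung and foregut mesenchyme-like cells 8 smooth muscle markers summed to 1026 and 3138 CPM, and the 8 markers of the class itself to 857 and 690 CPM. The part of these shifts in the results was not tested.

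Aldh1a2 had 55.1% of its UMIs in mesothelium-like cells, which were a small class, and Aldh1a3 had 55.7% of its UMIs in epithelium-like cells. Crabp1 had 53.2% of its UMIs in mesenchyme-like and 37.3% in neuron-like cells. Branchial muscle-like cells, the class with the most cells, held 41.5% of Crabp2 and 40.8% of Rara UMIs, and mesenchyme-like cells held 31.1% of Rarb UMIs. These shares depend on the size of a class as well as on its level. Counted in each library alone, 6 of the 10 genes had the same leading class in both among the 8 compared. The 4 exceptions were Cyp26a1 (epithelium-like in the control, mesenchyme-like in the mutant), Cyp26b1 (neuron-like, then mesenchyme-like), Rarb (mesothelium-like, then lung and foregut mesenchyme-like) and Crabp1 (mesenchyme-like, then neuron-like). For Cyp26b1 the control lead rested on 1 neuron-like cell with 33 of 46 UMIs, without which that class was at 3.26 CPM. An EC-related cluster outside the 8 classes, described below, was higher in Cyp26b1 than the leading class of each library. It was at 17.7 CPM in the control, with an interval that overlapped that of neuron-like cells, and at 116 CPM in the mutant library. For Cyp26a1 the mutant intervals of mesenchyme-like cells (14.7 to 20.7 CPM) and epithelium-like cells (10.0 to 16.3 CPM) overlapped. Male-like mutant cells were at 8.89 CPM in the mesenchyme-like and 17.3 CPM in the epithelium-like class, and female-like ones at 32.6 and 7.01 CPM. For Rarb the lead was a near tie in both libraries, since the intervals of the leading class overlapped those of mesenchyme-like cells.

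**Figure D1:**
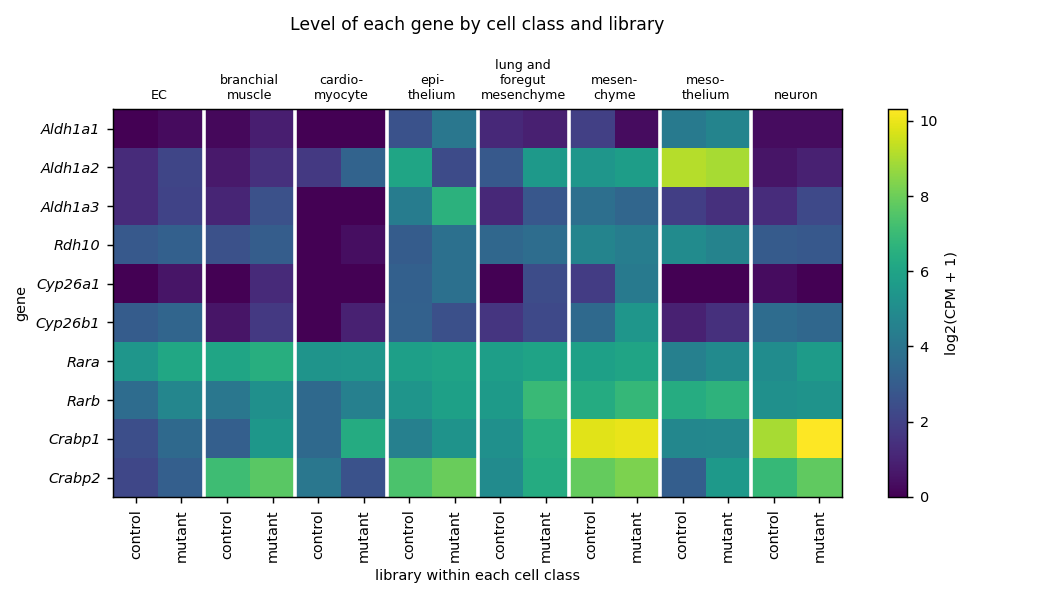
Level of each gene (rows) in each compared cell class and library (columns) as log2(CPM + 1), by colour. Aldh1a2 is brightest in both mesothelium-like columns, and Crabp1 in the mesenchyme-like and neuron-like columns of both libraries.

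Between libraries, a gene was called higher or lower in a class when it had at least 20 UMIs there and the whole 95% counting interval of the mutant to control ratio lay beyond 1.5-fold. Of 80 possible gene and class pairs 65 had enough UMIs, 20 were called higher in the mutant library and 2 lower, and the log2 ratio was above 0 in 55 of the 65. Branchial muscle-like cells had 6 of 10 tested members called higher, where 7.94% of all 15686 genes tested in them were called higher and 3.87% lower. Lung and foregut mesenchyme-like cells had 5 of 8 higher, against 4.67% of all genes higher and 1.89% lower. Epithelium-like cells had 2 of 10 higher and 1 lower, against 3.67% and 3.8%. Mesenchyme-like cells likewise had 2 of 10 higher and 1 lower, against 4.36% and 5.71%. Neuron-like cells had 2 of 7 higher, against 2.34% higher and 7.64% lower. A single member was called higher in EC-like cells (of 8 tested, against 5.21% higher and 4.69% lower), in cardiomyocyte-like cells (of 5, against 1.72% and 4.34%) and in mesothelium-like cells (of 7, against 7.04% and 2.41%). The median log2 ratio over the 65 pairs was 0.68, while that over all tested genes of a class lay between -0.08 and 0.05. Rdh10 and Rara were called in none of the classes.

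**Figure D2:**
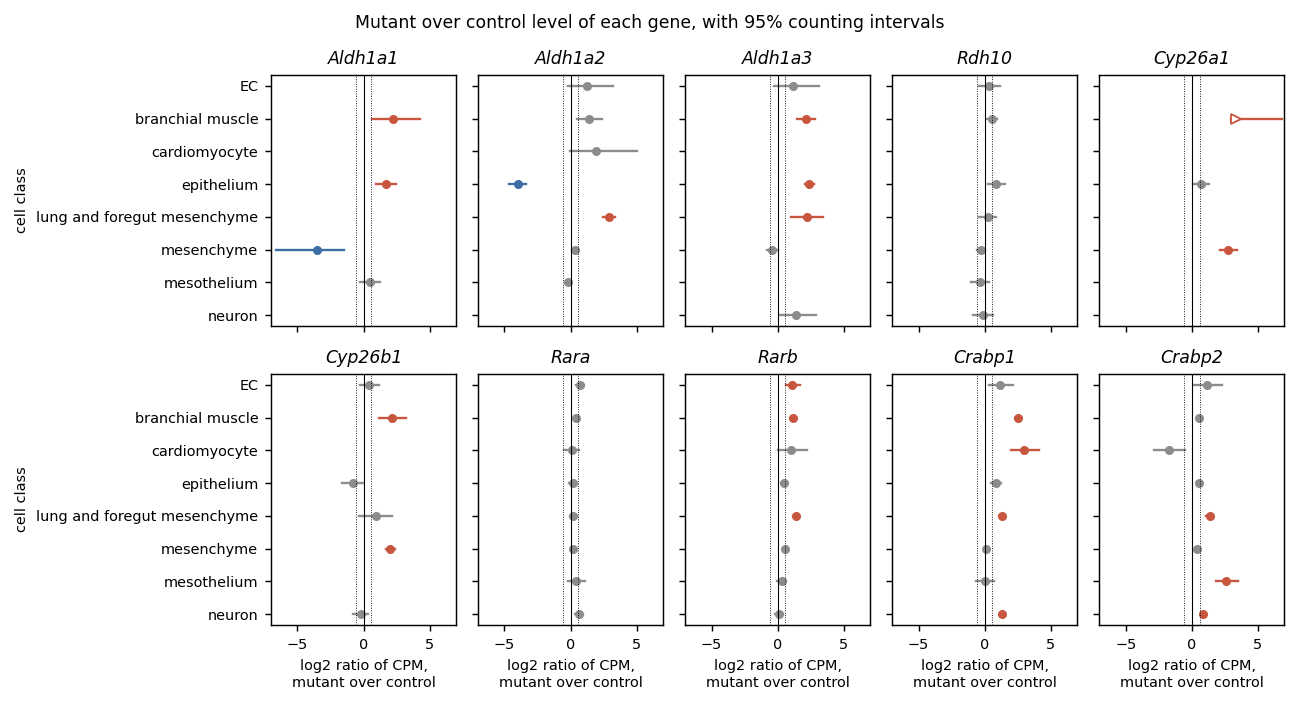
Log2 ratio of mutant to control CPM (horizontal) for each gene in each cell class with at least 20 UMIs, with 95% counting intervals. Red marks pairs called higher and blue pairs called lower, and dotted lines mark 1.5-fold. The open triangle is Cyp26a1 in branchial muscle-like cells, with its 0 control UMIs set at the floor of 3 counts. Points lie to the right of 0 in 55 of 65 pairs.

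Rdh10 (chr1:16105774-16133734, plus strand, GRCm38), which makes retinal from retinol, was the most evenly spread of the synthesis genes. It was at 30.4 CPM in control and 23.5 CPM in mutant mesothelium-like cells, and at 24.0 and 19.9 CPM in mesenchyme-like cells, and the pooled intervals of these leading classes overlapped. Its log2 ratios ran from -0.37 to 0.89 over 7 classes. The largest was in epithelium-like cells, at 7.06 CPM in the control and 13.04 CPM in the mutant library, with an interval of 0.24 to 1.56 that reached below 1.5-fold. Cardiomyocyte-like cells had 1 Rdh10 UMI in both libraries together.

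Aldh1a2 (chr9:71215789-71296243, plus strand), the main retinoic acid-producing enzyme of the trunk mesoderm, was at 571 CPM in control and 501 CPM in mutant mesothelium-like cells. The libraries were within 1.5-fold of each other there (log2 ratio -0.19, interval -0.33 to -0.05), and 69 of 70 control and 62 of 69 mutant cells had at least 1 UMI. Among cells thinned to 5000 UMIs, which makes shares comparable across depths, 85.7% of control and 73.1% of mutant mesothelium-like cells had an Aldh1a2 UMI, against 0.588% and 1.18% in the unnamed cluster of erythroid and macrophage genes. Mesenchyme-like cells followed at 41.9 and 52.5 CPM, also within 1.5-fold. Below these 2 classes the libraries were called apart in lung and foregut mesenchyme-like and epithelium-like cells. EC-like, branchial muscle-like and cardiomyocyte-like cells had no call, and neuron-like cells had too few UMIs.

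In lung and foregut mesenchyme-like cells, Aldh1a2 was at 6.36 CPM (64 UMIs in 35 of 456 cells) in the control and 46.7 CPM (110 UMIs in 30 of 113 cells) in the mutant library, 7.35-fold higher (log2 ratio 2.88, interval 2.42 to 3.35). The share of thinned cells with a UMI was 3.84% and 12.7%, with intervals that did not overlap (2.25 to 6.07% and 7.14 to 20.4%). The call remained past 1.5-fold in each of 14 alternatives, with log2 ratios from 1.25 without integration to 5.10 in female-like cells, and was 2.84 without the cell richest in Aldh1a2 of each library. This class was the one most skewed by sex, with 82.3% male-like and 10.6% female-like cells in the mutant library. The ratio in female-like cells rested on 12 mutant cells, which held 44 of the 110 mutant UMIs (218 CPM). The 93 male-like mutant cells were at 23.9 CPM, from 48 UMIs. Summed mesothelium markers in it were 5.76 CPM in the control and 26.8 CPM in the mutant library, and the part of such cells in the Aldh1a2 value was not tested.

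Epithelium-like cells went the other way. Aldh1a2 was at 65.2 CPM (268 UMIs in 28 of 212 cells) in the control and 4.10 CPM (22 UMIs in 15 of 301 cells) in the mutant library, 15.9-fold lower in the mutant (log2 ratio -3.99, interval -4.69 to -3.36), and the call held in all 14 alternatives. The UMIs lay in few cells. Of 21 epithelium-like cells with 3 or more Aldh1a2 UMIs, 19 were control and 2 mutant, and these cells were at 479 CPM of Six6, 174 CPM of Lhx3 and 597 CPM of Pitx1, transcription factors of the developing pituitary, against 19.3, 12.7 and 119 CPM in the 470 cells with no Aldh1a2 UMI. These 3 genes were chosen after the values were seen. Epithelium-like cells with a Lhx3 or Six6 UMI were 32 of 212 in the control and 29 of 301 in the mutant library, 15.1% (interval 10.6 to 20.6%) and 9.63% (6.55 to 13.54%). Within them Aldh1a2 was at 447 CPM in the control and 22.2 CPM in the mutant library, and outside them it was at 1.70 and 1.88 CPM. In this split the difference in Aldh1a2 lay in the cells with a Lhx3 or Six6 UMI. Since these genes were chosen after the values were seen, the split describes the difference and does not test it. Other marker sums of the class moved as well: 8 smooth muscle markers summed to 56.5 CPM in the control and 534 CPM in the mutant library, 10 mesothelium markers to 71.3 and 380 CPM, and 8 lung and thyroid endoderm markers to 409 and 179 CPM. Their part in the epithelial values was not tested.

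Aldh1a3 (chr7:66390890-66427517, minus strand), the retinaldehyde dehydrogenase of surface and sensory epithelia, was at 19.0 CPM in control and 98.6 CPM in mutant epithelium-like cells, 5.19-fold higher (log2 ratio 2.38, interval 2.03 to 2.74). Its UMIs came from 26 of 212 control and 39 of 301 mutant cells, and the thinned shares, 7.96% and 10.3%, had overlapping intervals. The richest mutant cell held 109 of 529 UMIs, and without the richest cell of each library the log2 ratio was 2.40. It was 1.32 in thinned cells and 3.04 in female-like cells. Branchial muscle-like cells were at 1.12 and 4.89 CPM (log2 ratio 2.13), and lung and foregut mesenchyme-like cells at 1.29 and 5.95 CPM (2.20, from 13 and 14 UMIs). Both were called higher from low levels, and the second was lost in 6 of 14 alternatives, removal of the richest cell among them. Mesenchyme-like cells were at 12.6 and 9.64 CPM, with no call. In epithelium-like cells with 3 or more Aldh1a2 UMIs, Aldh1a3 was at 12.02 CPM, from 6 UMIs in 3 of the 21 cells. In those with no Aldh1a2 UMI it was at 68.2 CPM. The 21 cells were 19 control and 2 mutant, while the 470 with none were 184 control and 286 mutant cells. This contrast could therefore not be told apart from that between the libraries.

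Aldh1a1 (chr19:20492715-20643465, plus strand) was sparse, with 263 UMIs in all kept cells. Mesothelium-like cells led, at 17.5 CPM in the control and 24.3 CPM in the mutant library. Epithelium-like cells were called higher in the mutant, at 5.11 and 16.2 CPM, but 66 of the 87 mutant UMIs came from 1 cell, and without the richest cell of each library the log2 ratio fell from 1.66 to -0.08. Mesenchyme-like cells were called lower, from 28 UMIs in 13 control cells to 2 UMIs in 2 mutant cells (log2 ratio -3.50, interval -6.61 to -1.51). With classes set by marker scores of each cell that ratio was 1.82. Branchial muscle-like cells had 4 control and 16 mutant UMIs, a call that held in 4 of 14 alternatives. None of the Aldh1a1 calls was stable in direction across the alternatives.

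Both clearance enzymes were called higher in the mutant library in mesenchyme-like cells. In lung and foregut mesenchyme-like cells Cyp26b1 had no call, at 1.99 CPM in the control and 3.82 CPM in the mutant library. Cyp26a1 had too few UMIs there to be tested, 0 in the control and 10 in the mutant library. Cyp26b1 (chr6:84571414-84593908, minus strand), a retinoic acid hydroxylase active in limb, craniofacial and skeletal tissue, was at 10.4 CPM in control and 41.9 CPM in mutant mesenchyme-like cells, 4.04-fold higher (log2 ratio 2.02, interval 1.69 to 2.35). The gene was found in more cells, 66 of 525 control and 137 of 507 mutant, and in 4.84% and 14.96% of thinned cells, with intervals that did not overlap (3.16 to 7.07% and 11.8 to 18.5%). In the unnamed erythroid and macrophage cluster 0 of 170 control cells (upper limit 2.15%) and 1 of 170 mutant cells (0.588%) had a UMI. It was higher in both parts of the class. In the cluster led by Twist1, Lum and Dcn it was at 6.94 and 33.6 CPM (log2 ratio 2.28), and in the cartilage-like cluster led by Col2a1, Col9a3 and Col11a1 at 27.8 and 88.4 CPM (1.67). The call remained past 1.5-fold in 14 of 14 alternatives, with log2 ratios from 1.60 to 2.20.

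The highest Cyp26b1 level with both libraries summed, 97.3 CPM, was in a cluster led by Eln, Fbln5 and Gja4. This cluster had raised levels of 11 of 12 EC markers. None of those markers, but the smooth muscle marker Tagln, was among its top 10 genes, and so it was kept apart from the EC-like class. It had 38 control and 151 mutant cells and was too small in the control to be compared. There Cyp26b1 was at 17.7 CPM (12 UMIs in 6 cells) in the control and 116 CPM (335 UMIs in 48 cells) in the mutant library. The richest mutant cell held 78 of the 335 UMIs. EC-like cells were at 7.07 and 9.34 CPM, with no call, and branchial muscle-like cells at 0.517 and 2.29 CPM, called higher (log2 ratio 2.15) but not in female-like cells, where the log2 ratio was 0.67. In epithelium-like cells the level was 8.28 CPM in the control and 4.66 CPM in the mutant library, an interval (-1.64 to -0.04) that did not clear 1.5-fold.

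Cyp26a1 (chr19:37697798-37701536, plus strand), the clearance enzyme most readily induced by retinoic acid, was at 2.59 CPM (25 UMIs in 10 cells) in control and 17.5 CPM (136 UMIs in 30 cells) in mutant mesenchyme-like cells, 6.75-fold higher (log2 ratio 2.75, interval 2.13 to 3.43). The direction was shared by the Twist1-led cluster (2.23 and 17.5 CPM) and the cartilage-like cluster (4.74 and 19.2 CPM), and the ratio without the richest cell of each library was 2.83. The size of the difference depended on the cells taken. Within the mutant library female-like cells were at 32.6 CPM and male-like cells at 8.89 CPM. The log2 ratio was 3.63 among female-like cells and 1.78 when the mutant side was limited to male-like cells. With 1 pool of 3 embryos, sex could not be told apart from differences between single embryos. Few cells carried the transcript in either library. Branchial muscle-like cells had 0 UMIs in 886 control cells and 26 UMIs in 9 of 846 mutant cells. With the control set at the floor of 3 counts for the library, the mutant level was 10.3-fold higher (log2 ratio 3.36). The counting interval of the log2 ratio had its lower limit at 2.96, and the pair was called higher. That call was lost in thinned cells and with male-like mutant cells alone. Epithelium-like cells, the leading class of the control library, were at 8.03 and 12.9 CPM, with no call. No Cyp26a1 UMI was seen in mesothelium-like or cardiomyocyte-like cells, which over both libraries allows up to 1.10 and 0.906 CPM by the upper Poisson limit.

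Joint detection in mesenchyme-like cells was counted for 1 pair of a synthesis and a clearance enzyme, Aldh1a2 and Cyp26b1. Of thinned mesenchyme-like cells with an Aldh1a2 UMI, 0 of 52 control cells (upper limit 6.85%) and 7 of 65 mutant cells (10.8%) also had a Cyp26b1 UMI. Among those without one, 25 of 464 control (5.39%) and 63 of 403 mutant cells (15.6%) had Cyp26b1. The intervals overlapped within each library, so a difference by Aldh1a2 was not detectable.

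The receptors were broadly expressed. Rara (chr11:98927818-98974942, plus strand) was found in each of the 8 compared classes, between 21.6 CPM in control mesothelium-like cells and 87.1 CPM in mutant branchial muscle-like cells. The ratio was above 0 in 8 of 8 classes and reached 1.5-fold with its whole interval in none. It was largest in EC-like cells, at 41.7 CPM in the control and 68.6 CPM in the mutant library (log2 ratio 0.72, interval 0.44 to 1.01), followed by neuron-like cells at 31.6 and 49.4 CPM (0.65, interval 0.35 to 0.95). In the unnamed erythroid and macrophage cluster 18.2% of control and 21.2% of mutant thinned cells had a Rara UMI, against 16.5 and 26.7% of EC-like cells, with overlapping intervals. Branchial muscle-like cells were at 26.9 and 34.5%, and in the mutant library their interval (31.2 to 37.9%) lay above that of the unnamed cluster (15.3 to 28.1%).

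Rarb (chr14:16430839-16819156, minus strand), a receptor gene that is itself switched on by retinoic acid, was above 0 in log2 ratio in 8 of 8 classes and called higher in 3. Lung and foregut mesenchyme-like cells were at 47.8 CPM in the control and 127 CPM in the mutant library (log2 ratio 1.41, interval 1.19 to 1.62). Branchial muscle-like cells were at 15.8 and 35.0 CPM (1.14, interval 0.96 to 1.33). EC-like cells were at 11.7 and 25.3 CPM (1.12, interval 0.60 to 1.68). The first 2 showed the difference also in the share of thinned cells, 19.6 and 35.5% and 7.57 and 17.6%, with intervals that did not overlap, while the EC-like shares of 5.79 and 11.3% had intervals that did. In the unnamed cluster 2.35% of thinned cells had a Rarb UMI in both libraries. The branchial muscle-like call held in 14 of 14 alternatives, the lung and foregut one in 13, and the EC-like one in 8, with a log2 ratio of 0.54 when classes were set by marker scores. Among the finer clusters, the one led by Adh1, Tcf21 and Hoxb5, apart from the smooth muscle cluster, was at 38.3 and 100 CPM (1.39). A neural crest and Schwann precursor-like cluster had 52 control and 23 mutant cells, too few in the mutant library to be compared. There Rarb was lower in the mutant library, at 55.3 and 16.6 CPM (-1.74, interval -3.12 to -0.59), from 50 and 7 UMIs. Rara in that cluster was at 90.7 and 59.3 CPM (-0.61), with an interval that reached above 0.

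Within classes, Rarb peaked in the cartilage-like cluster, at 169 CPM in the control and 320 CPM in the mutant library (log2 ratio 0.92), and in the smooth muscle cluster led by Myh11, Actg2 and Mylk, at 117 and 247 CPM (1.07). Mesenchyme-like cells as a whole were at 80.6 and 116 CPM (0.52) and mesothelium-like cells at 81.9 and 101 CPM (0.30), both without a call. Neuron-like cells were at 35.3 and 38.1 CPM. Their parts differed: the cluster led by Dcc and Igfbpl1 was at 86.7 and 48.4 CPM, and the one led by Thsd7b, Sncg and Neurod1 at 9.26 and 26.9 CPM (1.54).

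Retinoic acid receptors bind direct repeats of 6-base half-sites. RefSeq promoter windows on GRCm38.p6, from 250 bases before to 50 after a transcript start, were found for 7 of the 10 genes (11 windows; none for Aldh1a3, Rdh10 and Crabp2) and searched on both strands for 2 half-sites, each spelled as the consensus AGGTCA, as its common variant GGGTCA, as the related word AGTTCA or as the related word GGTTCA, with a spacer of 1, 2 or 5 bases. Only the windows of Rarb and Cyp26a1 held a match, both with a spacer of 5. Both matches were made of the spellings GGTTCA and AGTTCA alone, without AGGTCA or GGGTCA. They were therefore found only because those spellings were in the search. A match with a spacer of 5 occurred in 32 of 32851 windows (0.0974%), a share given for scale and not as a test. With any of the 3 spacers the share of windows was 0.588%. Whether retinoic acid induced either gene in these cells was not tested. The 2 stretches are shown because they carry the letters of the element in 2 known target genes whose levels are given above. They are written 5′ to 3′ on the strand of the gene, with the repeat in capitals, as
Rarb: gggaagGGTTCACCGAAAGTTCActcgc
Cyp26a1: taaagaTGAACTTTGGGTGAACTaattt
The first lies at chr14:16575508-16575535 on the minus strand, the repeat 53 to 37 bases before the RefSeq start and within the annotated span of the gene. The second lies at chr19:37697770-37697797 on the plus strand, 32 to 16 bases before the start, and its repeat reads in the opposite direction to the gene. A match of letters does not show binding, and the other windows were searched over 300 bases only.

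Crabp1 (chr9:54764748-54773110, plus strand), a binding protein of neural crest-derived and hindbrain tissue, was highest in neuron-like and mesenchyme-like cells. Mesenchyme-like cells were at 928 CPM in the control and 998 CPM in the mutant library, within 1.5-fold (log2 ratio 0.11), and 59.9 and 67.9% of thinned cells had a UMI. Neuron-like cells were at 501 and 1264 CPM, called higher (1.33, interval 1.26 to 1.40), though 29.6 and 33.9% of thinned cells had a UMI, with overlapping intervals. One control cell held 765 of the 2000 control UMIs, and without the richest cell of each library the levels were 310 and 1093 CPM (1.82).

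The neuron-like clusters did not share a direction. The cluster led by Dcc, Igfbpl1 and Ina was at 678 CPM in the control and 2032 CPM in the mutant library, and its log2 ratio of 1.58 became 3.80 without the richest cell of each library. The small cluster led by Cartpt, with the noradrenergic gene Dbh, had 44 control and 23 mutant cells and was at 51.3 and 538 CPM (3.39). In the cluster led by Thsd7b and Neurod1 the order was turned, at 588 CPM in 61 control cells and 105 CPM in 120 mutant cells (-2.48), and -2.90 without the richest cells. Of mutant neuron-like cells 52.9% were female-like, a larger share than in the mutant library as a whole.

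**Figure D3:**
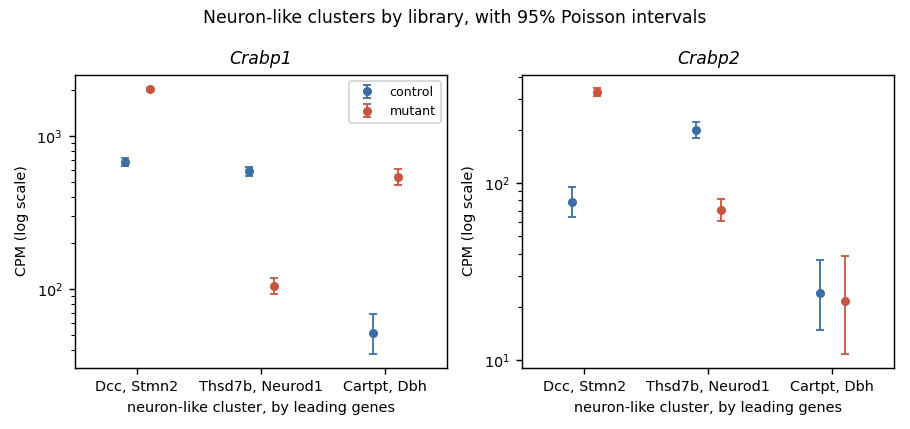
CPM of Crabp1 and Crabp2 (log scale) in the 3 neuron-like clusters, named by leading genes, for the control and mutant library, with 95% Poisson counting intervals. Crabp1 is higher in the mutant library in the clusters led by Dcc and by Cartpt and lower in the one led by Thsd7b. Crabp2 is higher in the Dcc-led and lower in the Thsd7b-led cluster. In the Cartpt-led cluster Crabp2 is not called apart, at 23.9 and 21.6 CPM.

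Outside its leading classes Crabp1 was called higher in branchial muscle-like cells, at 7.58 CPM in the control and 43.0 CPM in the mutant library (log2 ratio 2.504, interval 2.27 to 2.75). The thinned share was 4.13% (2.91 to 5.67%) in the control, which was no higher than the 4.71% of the unnamed erythroid and macrophage cluster and is read as background, and 11.5% (9.35 to 13.9%) in the mutant library, where that cluster had 4.12%. The richest mutant cell held 177 of 843 UMIs, and the log2 ratio without the richest cell of each library was 2.25. Cardiomyocyte-like cells were at 10.4 and 79.6 CPM, although 163 of 255 mutant UMIs came from 1 cell, without which the mutant level was 28.7 CPM. In these cells the log2 ratio without the richest cell of each library was 2.05. Their thinned shares of 3.70 and 9.60% had overlapping intervals, and the control share was below that of the unnamed cluster and is likewise read as background. Lung and foregut mesenchyme-like cells were at 35.3 and 87.5 CPM (1.31), with overlapping thinned shares of 12.4 and 18.2%, and the ratio was -0.60 when the libraries were clustered without integration. EC-like and epithelium-like cells had ratios of 1.18 and 0.82 without a call. In the neural crest and Schwann precursor-like cluster, which was too small to be compared, the order was turned. Crabp1 was at 195 CPM in 52 control cells and 30.8 CPM in 23 mutant cells there (-2.66, interval -3.60 to -1.85), from 176 and 13 UMIs. Crabp2 in that cluster was at 236 and 306 CPM (0.38), without a call.

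Crabp2 (chr3:87948666-87953376, plus strand), which delivers retinoic acid to its receptors, was spread over mesenchyme-like cells (231 CPM in the control and 307 CPM in the mutant library), epithelium-like cells (167 and 245 CPM), branchial muscle-like cells (138 and 202 CPM) and neuron-like cells (119 and 219 CPM). The first 3 were not called, at log2 ratios of 0.41, 0.55 and 0.55, although the thinned shares of mesenchyme-like cells (51.2 and 62.6%) and branchial muscle-like cells (37.7 and 47.9%) had intervals that did not overlap. Neuron-like cells were called higher (0.88, interval 0.73 to 1.03), and their thinned share was 20.4% in the control and 44.2% in the mutant library, with intervals that did not overlap. The cluster led by Dcc was at 78.7 and 329 CPM (2.06), while the one led by Thsd7b was at 200 and 70.9 CPM (-1.49). Crabp2 and Crabp1 thus moved in the same direction in each of these 2 clusters. In the small Cartpt-led cluster they did not, since Crabp2 was at 23.9 and 21.6 CPM there (-0.15), without a call.

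Mesothelium-like cells were called higher for Crabp2, at 7.36 CPM (16 UMIs) in the control and 45.3 CPM (54 UMIs) in the mutant library (log2 ratio 2.62, interval 1.80 to 3.53), and the call held in 14 of 14 alternatives. Thinned shares of 4.29 and 13.4% had overlapping intervals. The unnamed cluster was at 6.66 and 9.40 CPM of Crabp2 and at 1.18 and 5.29% of thinned cells, so the control level in mesothelium-like cells was not distinguishable from it. In these cells 10 cardiomyocyte markers summed to 479 CPM in the control and 1629 CPM in the mutant library and the 8 smooth muscle markers to 133 and 619 CPM, and their part was not tested. Lung and foregut mesenchyme-like cells were called higher too, at 30.6 and 79.0 CPM (1.37, interval 1.10 to 1.64), with thinned shares of 11.7 and 24.5% whose intervals did not overlap. Cardiomyocyte-like cells were at 16.2 and 4.99 CPM, from 14 and 16 UMIs, with no call.

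**Figure D4:**
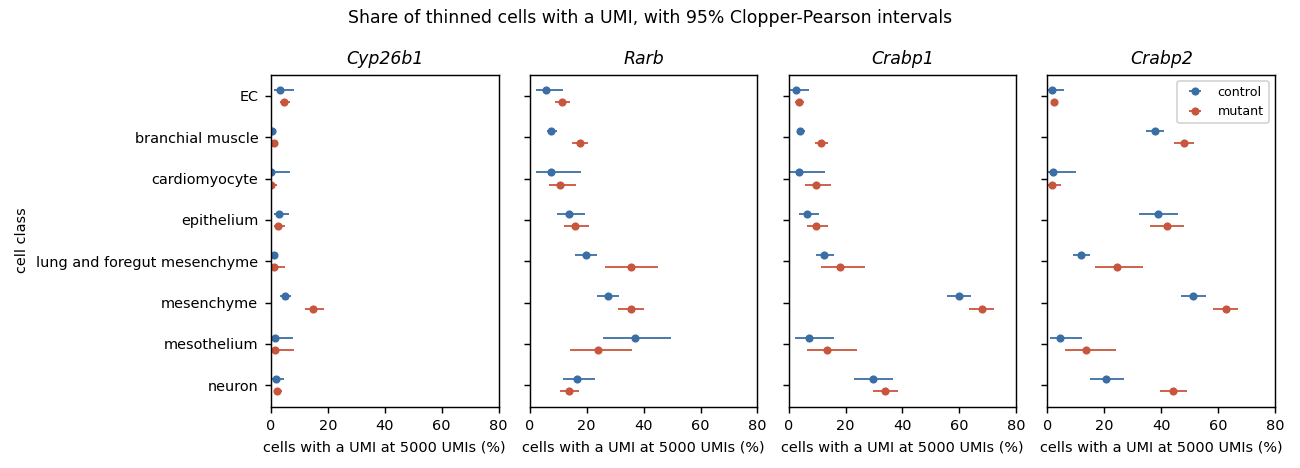
Share of cells with a UMI of Cyp26b1, Rarb, Crabp1 and Crabp2 (horizontal, percent) after thinning each cell to 5000 UMIs, by class and library, with 95% Clopper-Pearson intervals. Intervals of the 2 libraries are apart for Cyp26b1 in mesenchyme-like cells, Rarb in branchial muscle-like and lung and foregut mesenchyme-like cells, Crabp1 in branchial muscle-like cells, and Crabp2 in mesenchyme-like, branchial muscle-like, lung and foregut mesenchyme-like and neuron-like cells.

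The other 58 genes of the pathway were called in both directions. Over the 8 classes, 295 of their gene and class pairs were tested, 35 were called higher and 18 lower. The counts called were 9 of 43 higher and 2 lower in branchial muscle-like cells, 7 of 39 higher and 3 lower in epithelium-like cells, 5 of 39 and 2 in neuron-like cells, 4 of 38 and 2 in EC-like cells, 3 of 38 and 3 in lung and foregut mesenchyme-like cells, 3 of 43 and 2 in mesenchyme-like cells, 3 of 35 and 2 in mesothelium-like cells and 1 of 20 and 2 in cardiomyocyte-like cells. Over all genes tested, the shares called higher and lower were 7.94 and 3.87%, 3.67 and 3.8%, 2.34 and 7.64%, 5.21 and 4.69%, 4.67 and 1.89%, 4.36 and 5.71%, 7.04 and 2.41%, and 1.72 and 4.34% in the same order of classes. Counts of 3 or fewer in one direction are too few to be read against these shares. The median log2 ratio of these genes lay between -0.47 in cardiomyocyte-like cells and 0.35 in branchial muscle-like cells.

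Genes of retinol handling were called in both directions in the lung and foregut mesenchyme-like class. Stra6, the retinol uptake receptor, was at 4.67 CPM in the control and 25.5 CPM in the mutant library (log2 ratio 2.45), and was called higher also in branchial muscle-like cells (20.9 and 49.4 CPM) and epithelium-like cells (7.06 and 16.4 CPM). Dhrs3, which turns retinal back to retinol, was at 7.65 and 17.4 CPM (1.19). Adh1, an alcohol dehydrogenase and a leading gene of this class, was at 378 and 33.1 CPM (-3.51), and Lrat, which stores retinol as esters, at 7.85 and 1.27 CPM (-2.62). Hoxb5, a regional identity gene also listed among the retinoic acid target genes, was at 225 and 101 CPM (-1.16). It was the 1 target gene called lower in this class, where 4 of 18 were called higher, against 1.89% and 4.67% of all genes. The 4 were the members Rarb and Crabp2 together with Stra6 and Dhrs3. With the members set aside, too few were left to be read against these shares. Adh1 leads the clusters of this class. Adh1 was also called lower in branchial muscle-like cells (3.36 and 0.255 CPM) and mesenchyme-like cells (24.4 and 6.30 CPM), and higher in epithelium-like cells from 4 and 27 UMIs.

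Meis2, a transcription factor gene induced by retinoic acid in limb and face, was called higher in 5 of the 8 classes and lower in 1. It was at 310 CPM in control and 633 CPM in mutant epithelium-like cells (log2 ratio 1.03), at 26.7 and 103 CPM in branchial muscle-like cells (1.96), at 335 and 547 CPM in mesenchyme-like cells (0.71), at 321 and 693 CPM in mesothelium-like cells (1.11) and at 257 and 468 CPM in neuron-like cells. In EC-like cells the order was turned, at 236 and 59.0 CPM (-1.998). EC-like cells had a split among other genes too: Tgm2, a transglutaminase induced by retinoic acid in many cells, was at 17.7 and 85.3 CPM (2.27), and Stra6 at 6.72 and 1.54 CPM (-2.12). Tgm2 was at 143 and 277 CPM in cardiomyocyte-like cells (0.95) and at 10.8 and 4.50 CPM in mesenchyme-like cells (-1.26).

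Fabp5, a carrier that can bring retinoic acid to another nuclear receptor, was called higher in EC-like cells (389 and 851 CPM), lung and foregut mesenchyme-like cells (163 and 472 CPM), mesenchyme-like cells (208 and 438 CPM) and epithelium-like cells (371 and 604 CPM), and was at 803 and 916 CPM in neuron-like cells, its leading class over both libraries, without a call. The list of target genes also held the members Rarb, Cyp26a1 and Crabp2. In neuron-like cells 4 of its 19 tested genes were called higher and 0 lower, against 2.34% and 7.64% of all genes. Among these 4 were the member Crabp2, Hoxb2 (23.3 and 44.5 CPM) and Hoxb1 (0 and 24 UMIs). In epithelium-like cells 4 of 17 were called higher and 1 lower, against 3.67% and 3.8% of all genes. The higher ones included Hoxb2 (3.90 and 11.4 CPM) and Hoxa3 (1.70 and 6.89 CPM). Branchial muscle-like cells had 7 of 20 target genes higher and 0 lower, and lung and foregut mesenchyme-like cells 4 of 18 higher and 1 lower. EC-like cells had 3 of 19 higher and 2 lower, and mesenchyme-like cells 2 of 20 higher and 1 lower. Mesothelium-like cells had 2 of 16 higher and cardiomyocyte-like cells 1 of 7, with 0 lower in both. The higher ones included the members Rarb and Cyp26a1 in branchial muscle-like cells and Rarb and Crabp2 in lung and foregut mesenchyme-like cells. They also included Rarb in EC-like cells, Cyp26a1 in mesenchyme-like cells and Crabp2 in mesothelium-like cells. The shares of all genes in these classes are given above, and counts of 3 or fewer are again too few to be read against them. Rxrg, a retinoid X receptor, was lower in epithelium-like cells, at 9.74 and 2.98 CPM (-1.71). It was lower in neuron-like cells as well (8.27 and 1.94 CPM).

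Ncoa1, a coactivator of nuclear receptors, was called lower in branchial muscle-like cells (339 and 199 CPM), cardiomyocyte-like cells (41.6 and 15.6 CPM) and neuron-like cells (159 and 92.9 CPM). Cyp2s1, a cytochrome able to act on retinoids, was called higher in mesenchyme-like cells (2.07 and 5.52 CPM) and mesothelium-like cells (12.9 and 46.2 CPM). In mesothelium-like cells Lrp2, an endocytic receptor for retinol carrier protein, was at 37.7 and 128 CPM (1.77), while the short-chain dehydrogenases Dhrs4 and Dhrs7 were lower, at 234 and 79.7 CPM (-1.55) and 27.1 and 7.55 CPM (-1.85). Dhrs7 was also lower in cardiomyocyte-like cells, at 48.5 and 11.9 CPM. The plasma carriers Rbp4 and Ttr, made by liver, were called higher in branchial muscle-like cells at low levels (0.603 and 4.18 CPM, 0.387 and 1.73 CPM). The mutant library alone held hepatoblast-like cells, 46 against 0 in the control. The sum of 7 hepatoblast markers was higher in the mutant library in all 8 compared classes. It was at 0.387 and 30.0 CPM in branchial muscle-like cells and 0.707 and 21.5 CPM in EC-like cells. Neuron-like cells were at 2.76 and 27.6 CPM and epithelium-like cells at 5.1 and 31.3 CPM. The part of hepatoblast transcripts in such values was not tested. This holds also for Ttr in epithelium-like cells (0 and 89 UMIs). It holds as well for Rbp4 in EC-like cells (0 and 28 UMIs) and neuron-like cells (2 and 30 UMIs). Rbp4 was lower, by contrast, in epithelium-like cells (11.0 and 4.10 CPM). Lrp2 in branchial muscle-like cells (4 and 20 UMIs) and Stra6l in neuron-like cells (5 and 37 UMIs) were called higher from few UMIs.

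Over 23 finer clusters, with both libraries summed, the genes whose level pattern was most like that of each member were found by Pearson correlation of log2(CPM + 1). These are descriptions across clusters that share libraries and depth. For Rarb they were Foxp2 (r = 0.91), Vegfa (0.88) and Nfib (0.88), and for Crabp1 Npy1r (0.89), Ntrk2 (0.88) and Ntrk3 (0.87). For Aldh1a2 they were Fmod (0.89), Igfbp6 (0.83) and Adam33 (0.82), and for Aldh1a3 Rassf10 (0.85), Pthlh (0.83) and Sostdc1 (0.80). The Cyp26a1 pattern was nearest to Kazald1 (0.88), Col7a1 (0.88) and Mia (0.86), and that of Cyp26b1 to Kcnc2 (0.88), 3830408C21Rik (0.86) and Gm16070 (0.86). The remaining members followed Ext2 (0.87), Slc39a7 (0.85) and Mia3 (0.84) for Rdh10, Zfp629 (0.81), Fjx1 (0.81) and Msi1 (0.80) for Crabp2, Polm (0.82), Sema3d (0.81) and Ano1 (0.78) for Aldh1a1, and Slc41a1 (0.78), Lsm14a (0.78) and Nes (0.77) for Rara. Among the members themselves the highest correlations were between Aldh1a3 and Crabp2 (0.71) and between Aldh1a3 and Cyp26a1 (0.68).

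Of the 22 calls, 10 remained past 1.5-fold in each of the 14 alternatives in which their ratio was recomputed, and 18 kept the sign of the ratio in each. The 4 that changed sign in at least 1 alternative were the 3 calls of Aldh1a1 and that of Crabp1 in lung and foregut mesenchyme-like cells. The 10 were Rarb and Crabp1 in branchial muscle-like cells, Crabp1 in cardiomyocyte-like and neuron-like cells, Aldh1a2 and Aldh1a3 in epithelium-like cells, Aldh1a2 in lung and foregut mesenchyme-like cells, Cyp26a1 and Cyp26b1 in mesenchyme-like cells and Crabp2 in mesothelium-like cells. The neuron-like ratio of Crabp1 pools clusters of opposite direction, and the Dcc-led cluster had 88 control and 322 mutant cells. For Crabp1 in cardiomyocyte-like cells, the female-like alternative rested on 11 control cells with 2 UMIs and 11 mutant cells with 45 UMIs.

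**Figure D5:**
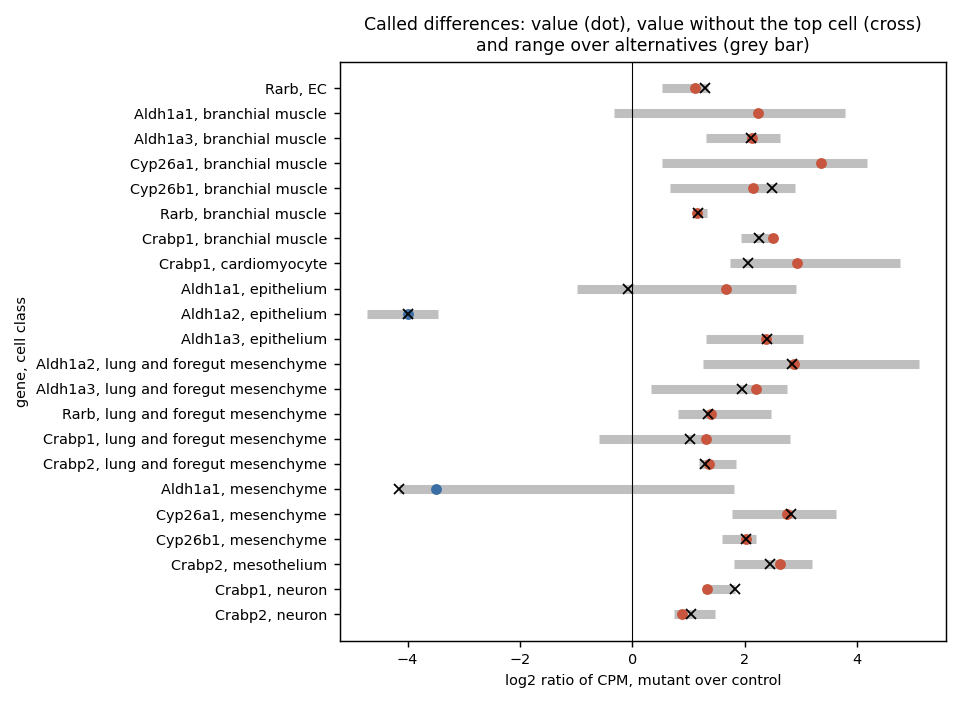
Log2 ratio of mutant to control CPM for the 22 called gene and class pairs (dots), the ratio without the cell richest in the gene in each library (crosses, shown where at least 20 UMIs were left) and the range over the 14 alternatives (grey bars). The grey bars of the 3 Aldh1a1 pairs and of Crabp1 in lung and foregut mesenchyme-like cells cross 0, and the others do not.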

How the data were processed

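Droplet 5′ single-cell RNA libraries were made from sorted eYFP+ cells, 1 library per genotype. The authors ran Cell Ranger 7.1.0 with the mouse mm10 reference and deposited raw UMI counts per gene and cell as filtered matrices. Whether intronic reads were counted is not given in the sources used here. Totals were 66935720 UMIs in the control and 73915525 in the mutant library.

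Cells passed with over 2000 and under 9000 genes and a mitochondrial share under 10%. Both libraries were integrated by CCA and clustered with Seurat 5.3.0 (R 4.3.3) on 30 components from 2000 variable genes, with 68 listed genes left out, at resolution 0.3 and, for finer clusters, 0.8. Clusters were named from marker lists, where a marker counted as raised at a log2 difference of 1 or more. Doublets were kept, since Scrublet (scanpy 1.11.5) called 0 control cells and 1 mutant cell, and an alternative removed the highest scores, 0.8% per 1000 deposited cells. UMIs were summed per class and library and given as CPM with exact Poisson 95% intervals. Log2 ratios have conditional exact binomial intervals and shares of cells Clopper-Pearson intervals. UMIs at 0 were set at a floor of 3 counts. These intervals cover counting error only, and the scripts were tested on simulated data. The files hold 32285 gene rows.

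The members and gene lists were chosen with earlier results of these data known. The text names all members, the called pathway genes with the largest ratios in each class (at most 4 in each direction), the gene of each list with the highest level, and for each member the 3 most similar genes with at least 100 UMIs. Some genes that this rule names are not reported here. Further calls of a named pathway gene in other classes were added after values were seen. TMM factors came from edgeR 4.0.16. Cell classes were rebuilt here, so they may differ from those of the study.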

Additional observations from a re-analysis of the deposited data

Results flagged for a closer look

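Aldh1a1 and Aldh1a2 were the members with calls in opposite directions in different classes. The log2 ratio of mutant to control CPM for Aldh1a1 was 2.24 in branchial muscle-like cells, 1.66 in epithelium-like cells and -3.50 in mesenchyme-like cells. For Aldh1a2 it was -3.99 in epithelium-like cells and 2.88 in lung and foregut mesenchyme-like cells. The difference between the classes was not tested, since each genotype had 1 library.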

How the results depend on the processing

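The 20 calls higher became 11 in thinned cells and lay between 15 and 21 in the other alternatives. The 2 calls lower became 1 in thinned cells, 1 with classes from marker scores and 1 with at least 100 UMIs. Signs turned for Crabp1 in lung and foregut mesenchyme-like cells without integration (-0.60), and for Aldh1a1 in branchial muscle-like cells among female-like cells (-0.33), in mesenchyme-like cells with marker scores (1.82) and in epithelium-like cells with at least 1000 genes (-0.48), with marker scores (-0.29), with male-like mutant cells (-0.99) and without the top cell (-0.081). The cause was not tested. The number of genes with the same leading class in both libraries, 6, lay between 5 and 8. Leaving out the top cell and taking finer clusters on their own were chosen after seeing the data. No paired analysis was possible because each genotype had 1 library, and for the same reason none could be left out. Pairs with under 20 UMIs in a class were not called, except in the alternative with a minimum of 1 UMI (21 higher).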
